A study of Mus musculus with 10 samples.

Results

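The 36 genes described here encode aminoacyl-tRNA synthetases, the enzymes that join each amino acid to its transfer RNA. They were taken by name from the array's gene probes, 20 of them for cytosolic enzymes and 16 for mitochondrial ones, out of 19752 genes with a named probe. RNA was measured on 10 one-colour mouse arrays in 5 groups of 2. Male C57BL/6J mice carrying hSA::Fv2E-PERK gave muscle after AP20187 (1 ng/g, 12 h) and after vehicle, and wild type mice of the same strain gave untreated muscle. The C2C12 Fv2E-PERK line, mouse myoblasts differentiated for 3 days in low serum, was given AP20187 (100 nM, 12 h) or vehicle. Fv2E-PERK is the kinase PERK fused to a domain that pairs when AP20187 binds it, and in the mice a skeletal actin promoter drives it. All groups except wild type muscle carried the fusion, and wild type mice received no injection. The labels do not say whether the 2 samples of a group came from separate animals or cultures, so the p-values measure the spread between these samples, which may be technical.

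Most amino acids have separate nuclear genes for a cytosolic and a mitochondrial synthetase, the second kind usually named with a 2. Gars and Kars each encode both forms of their enzyme, Eprs carries both glutamyl and prolyl activity, and phenylalanine needs a pair of cytosolic subunits, Farsa and Farsb. Glutaminyl-tRNA in mitochondria is made indirectly: Ears2 first loads glutamate, and an amidotransferase with the subunits Gatb, Gatc and Qrsl1 converts it. PERK phosphorylates eIF2alpha, which starts the integrated stress response, and the transcription factor ATF4 of that response is known to bind C/EBP-ATF response elements (CARE) at genes of amino acid supply, several cytosolic synthetases among them.

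The CARE core, TGATGNAA on either strand (as read from the other strand, TTNCATCA), was looked for in the promoters of the RefSeq table for GRCm38.p6, 250 bases before to 50 bases after each gene start. That table held 27 of the 36 genes, 13 cytosolic and 14 mitochondrial. The core was present at 5 of the 13 cytosolic genes (38.5%) and at 0 of the 14 mitochondrial genes, counting any promoter of a gene. Of all 32851 promoters of this length, which belong to 27025 genes, 3.97% held it. This last share is by promoter and not by gene. The stricter TGATGCAA (or TTGCATCA), which is part of the first search, was found at Yars, Aars, Iars and Tars, and in 0.895% of all promoters. These are matches of letters and not measured binding. The stretches around the matches are shown because the genes that hold them are set against the others below. Each runs 5′ to 3′ along the gene's strand and stops at most 20 bases past the start, with the match in capitals.
Yars, chr4:129189876-129189922, plus strand: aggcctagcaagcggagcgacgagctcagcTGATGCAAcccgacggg
Gars, chr6:55037941-55038008, plus strand: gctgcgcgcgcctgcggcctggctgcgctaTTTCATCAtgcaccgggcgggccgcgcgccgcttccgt
Aars, chr8:111033700-111033767, plus strand: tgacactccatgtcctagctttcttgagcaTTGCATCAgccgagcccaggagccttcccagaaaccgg
Aars, chr8:111033821-111033861, plus strand: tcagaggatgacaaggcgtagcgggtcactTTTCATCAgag
Iars, chr13:49682107-49682149, plus strand: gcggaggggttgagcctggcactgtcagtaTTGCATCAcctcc
Tars, chr15:11399639-11399703, minus strand: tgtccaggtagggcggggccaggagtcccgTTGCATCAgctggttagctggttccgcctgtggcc

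Levels below are the intensity of a gene's probe divided by the 75th percentile of all gene spots on the same array. They can be compared between arrays for 1 gene but not between genes, because probes differ in brightness. A gene is called changed here where limma gave it a p below 0.05 after Benjamini-Hochberg adjustment over all genes tested. Between 41% and 53.1% of gene spots per array were well above background, and replicate arrays differed by a median of 0.124 to 0.172 on the log2 scale. For 35 of the 36 synthetase genes, both arrays of some group were well above background, and these genes were tested. Nars2, the mitochondrial asparaginyl enzyme, was not well above background on any of the 10 arrays. The wild type arrays were on a slide and in a scan of their own, and the 4 transgenic muscle arrays shared another slide and scan. The C2C12 arrays came from another scan whose headers give the slide of the transgenic arrays, and 2 positions on it appear in both scans. The skeletal muscle markers, summed over the 8 with a value on every array, were between 6200 and 9200 on the muscle arrays and between 377 and 509 on the C2C12 arrays, including the 2 C2C12 arrays at those positions (377 and 460).

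In muscle of transgenic mice given vehicle, 19 of 20 cytosolic synthetase genes were higher than in wild type muscle and 0 were lower. This was 95% of them, against 25.7% of all 13543 genes tested that were higher and 12.6% that were lower. The glycyl, glutamyl-prolyl, leucyl, methionyl and seryl enzymes rose most, between 2.38-fold and 3.28-fold. On both transgenic vehicle arrays, all 20 lay above both wild type arrays, which 42.8% of all genes did. Of the 15 mitochondrial genes tested, 6 were higher and 0 lower, a count that depends on the scaling as given below.

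Gars, the glycyl enzyme, had relative levels of 266 and 294 in transgenic vehicle muscle, against 88 and 82.4 in wild type muscle. It rose 3.28-fold, a log2 change of 1.72 (SE 0.10, adjusted p = 5.37e-05), the largest of the 35 genes tested. Eprs, which loads glutamate and proline, had 12.6 and 11.1 in transgenic vehicle muscle and 4.02 and 3.63 in wild type muscle, a 3.09-fold rise (log2 change 1.63, SE 0.13, adjusted p = 0.000159). The 2 arrays of each group were close to each other for both genes, and the groups did not overlap.

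Lars, the leucyl enzyme, also known in mammals as a leucine sensor for mTORC1, had 25.8 and 25.9 in transgenic vehicle muscle and 10.7 and 10.7 in wild type muscle (2.41-fold, SE 0.09 on the log2 scale, adjusted p = 0.000122). Mars1, the methionyl enzyme that serves both start and internal methionine, had 11 and 11 in transgenic vehicle muscle, against 4.67 and 4.53 in wild type muscle (2.38-fold, SE 0.10, adjusted p = 0.000173). Sars, the seryl enzyme, which also loads the selenocysteine tRNA with serine, had 72.3 and 72.6 in transgenic vehicle muscle and 32.9 and 28.1 in wild type muscle (2.38-fold, SE 0.10, adjusted p = 0.000196). In each of the 3 the transgenic arrays nearly coincided and stood clear of wild type. Iars, the isoleucyl enzyme, had 33.5 and 29.1 in transgenic vehicle muscle and 15.9 and 15 in wild type muscle (2.02-fold, SE 0.10, adjusted p = 0.000425). Cars, the cysteinyl enzyme, had 38.8 and 40 in transgenic vehicle muscle, against 20.8 and 20.4 in wild type muscle (1.92-fold, SE 0.09, adjusted p = 0.000318). Nars, the asparaginyl enzyme, had 16.4 and 15.5 in transgenic vehicle muscle and 8.81 and 8.86 in wild type muscle (1.80-fold, SE 0.10, adjusted p = 0.000651). These 3 genes were again without overlap, at a rise near or below that of Lars.

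The other called cytosolic genes rose by 0.31 to 1.04 on the log2 scale. Yars, the tyrosyl enzyme, had the largest of these changes and the widest error (1.04, SE 0.28), with low levels of 0.16 and 0.183 in transgenic vehicle muscle, against 0.0836 and 0.0832 in wild type muscle. Wars (0.83, and 0.90 with a brighter probe that lacked a value on 1 C2C12 array), Dars (0.76) and Aars (0.66), for tryptophan, aspartate and alanine, followed. Rars (0.59), Vars (0.56), Tars (0.48) and Hars (0.40), for arginine, valine, threonine and histidine, rose less. The lysyl gene Kars (0.38) and the phenylalanyl subunits Farsa (0.32) and Farsb (0.31) rose least, the subunits by nearly the same amount. Qars, the glutaminyl enzyme, had a log2 change of 0.26 and was the 1 gene that did not pass (adjusted p = 0.0604).

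**Figure D1:**
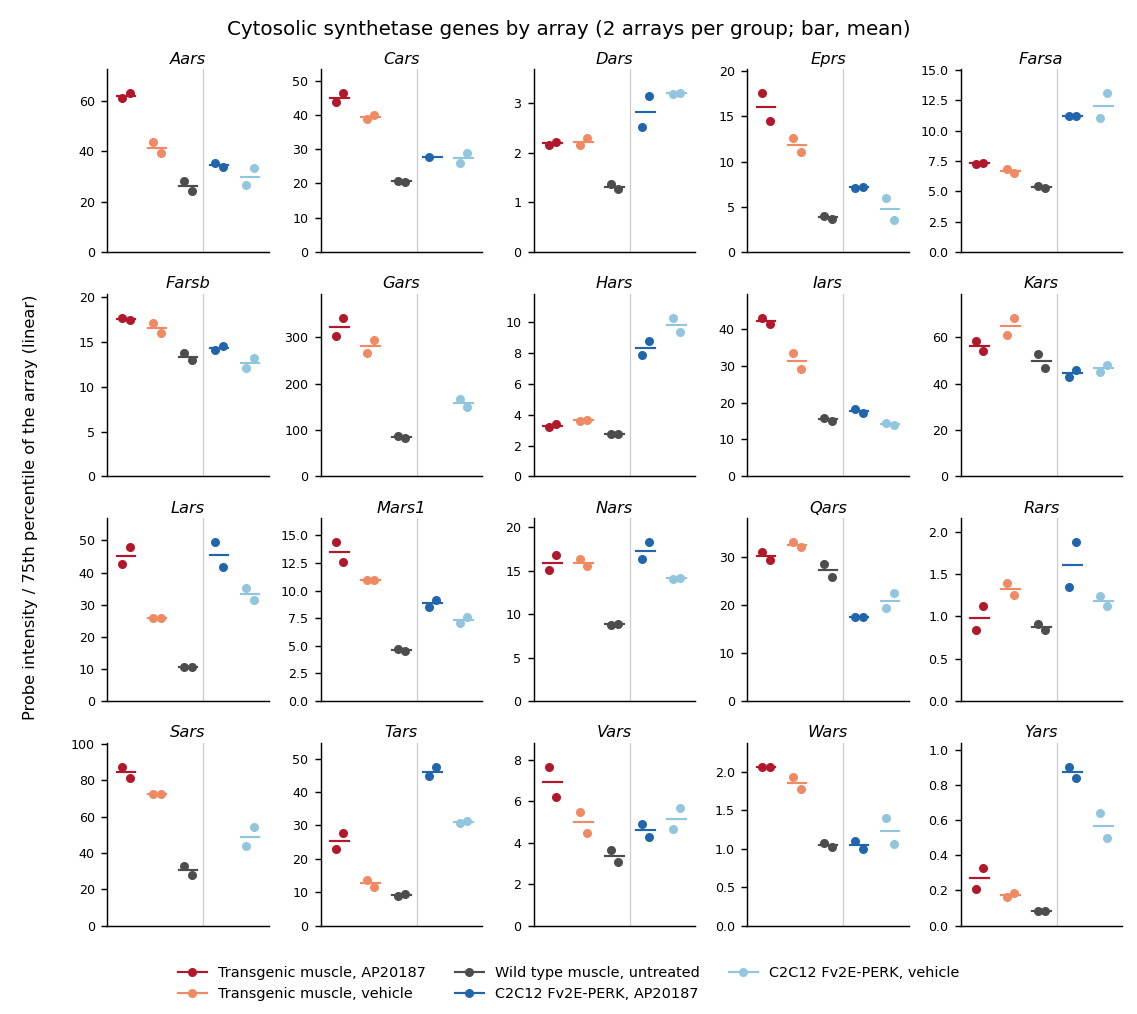
Relative level (probe intensity over the 75th percentile of the array, linear axes from 0) of the 20 cytosolic synthetase genes on each array; points are arrays, bars are means of a group. Gars stands at 266 and 294 in transgenic vehicle muscle and at 88 and 82.4 in wild type; the points of Gars, Sars and 1 array of Cars are missing in C2C12 after AP20187 because their spots carried outlier flags.

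Among the mitochondrial genes, Ears2, the glutamyl enzyme, had 2.51 and 2.85 in transgenic vehicle muscle, against 1.65 and 1.63 in wild type muscle (1.63-fold, SE 0.11 on the log2 scale, adjusted p = 0.00205). Pars2, the prolyl enzyme, had 2.71 and 2.89 in transgenic vehicle muscle and 1.72 and 1.79 in wild type muscle (1.59-fold, SE 0.10, adjusted p = 0.00215). Tars2, the threonyl enzyme, had 23.5 and 27.3 in transgenic vehicle muscle and 15.9 and 16.3 in wild type muscle (1.57-fold, SE 0.10, adjusted p = 0.00257). Each was higher on both transgenic arrays without overlap. Fars2, the phenylalanyl enzyme, had 30.1 and 33.5 in transgenic vehicle muscle, against 20.9 and 19.9 in wild type muscle (1.56-fold, SE 0.09, adjusted p = 0.00177). Yars2, the tyrosyl enzyme, had 4.87 and 5.62 in transgenic vehicle muscle and 3.44 and 3.67 in wild type muscle (1.47-fold, SE 0.11, adjusted p = 0.00622). Rars2, the arginyl enzyme, had 6.53 and 7.38 in transgenic vehicle muscle and 5.18 and 5.59 in wild type muscle (1.29-fold, SE 0.11, adjusted p = 0.032). The other 9 mitochondrial genes did not pass and had log2 changes between -0.23 (Aars2, alanyl) and 0.46 (Mars2, methionyl). For Vars2, the valyl enzyme, the brightest probe had -0.13 and a second one 0.75. The change of the second probe came from 1 array. Its log2 levels were -0.02 and -1.59 in transgenic vehicle muscle, against -1.44 and -1.67 in wild type muscle.

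The median log2 change in this comparison was 0.79 for the cytosolic genes and 0.19 for the mitochondrial genes, against 0.09 for all genes. Where both enzymes of an amino acid were measured, the cytosolic gene had the larger change in 13 of 15 pairs, with a median difference of 0.82 on the log2 scale. Eprs enters 2 of these pairs, and phenylalanine is represented by Farsa. Serine and leucine stood furthest apart, with Sars 1.47 above Sars2 and Lars 1.41 above Lars2. The exceptions were phenylalanine, where Fars2 changed by 0.32 more than Farsa, and threonine, where Tars2 changed by 0.17 more than Tars. The differences within pairs were not tested.

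**Figure D2:**
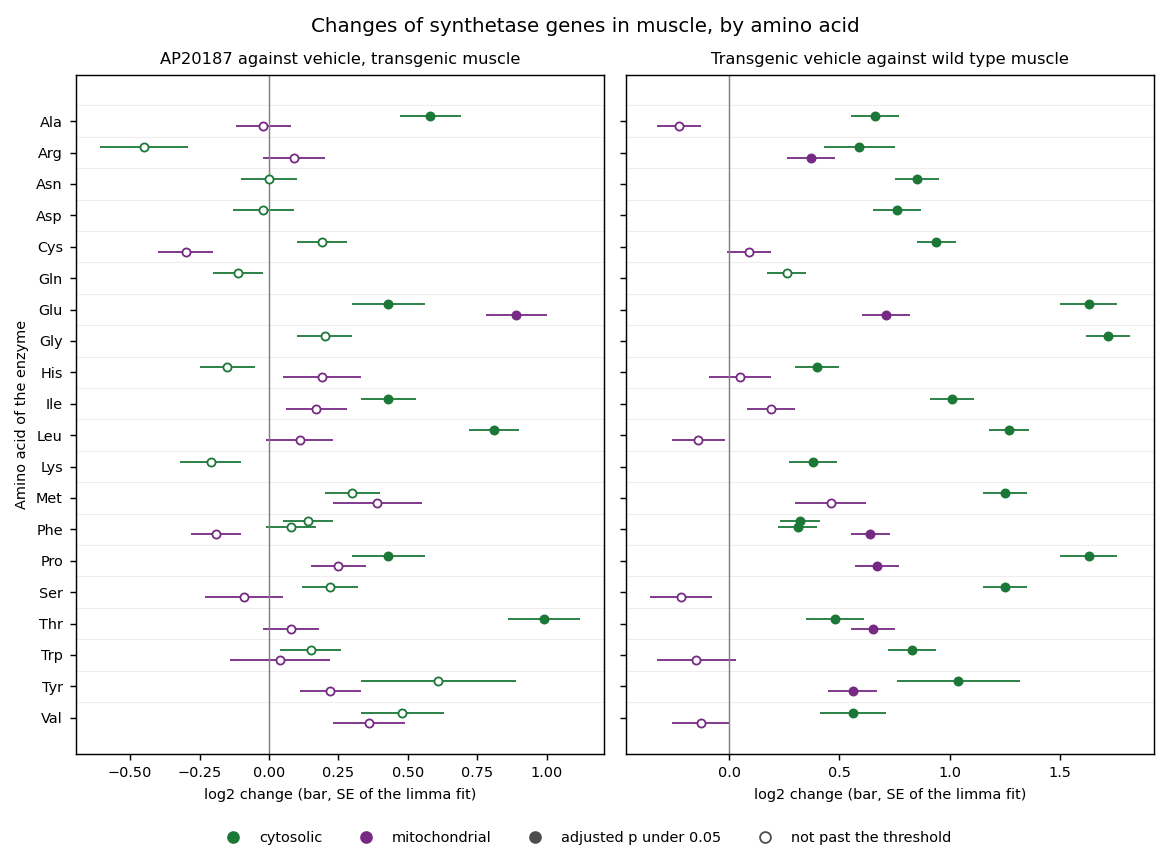
Log2 change with its standard error for the cytosolic (green) and mitochondrial (purple) gene of each amino acid, with AP20187 against vehicle in transgenic muscle on the left and transgenic vehicle against wild type muscle on the right; filled points passed an adjusted p of 0.05. On the right 19 of 20 cytosolic genes are filled and 6 of 15 mitochondrial ones; on the left 5 and 1 are filled. Eprs is drawn at both glutamate and proline.

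Genotype, injection, slide and scan cannot be told apart between these 2 groups, and the count depends on the scaling. With the 75th percentile taken over probes detected on all arrays, the median of all genes moved to -0.13, and 2006 genes were then higher and 3108 lower, against 3478 and 1706 (2676 and 2259 after quantile normalization). The median of the cytosolic genes stood 0.71 above that of all genes under either percentile. A change of percentile moves all genes of an array alike, so this gap could hardly change. It was 0.64 after quantile normalization and 0.56 after normexp background correction. The cytosolic genes called were 12 with the percentile over detected probes. Without the second wild type array 11 were called. Gars, Eprs, Lars, Mars1, Sars, Cars, Iars, Nars, Wars and Dars were called under each of the 16 alternatives, and among mitochondrial genes Ears2, Fars2, Pars2, Tars2 and Yars2. The mitochondrial genes called were 5 higher and 2 lower with the percentile over detected probes, with Aars2 at -0.44 and Sars2 at -0.43, and the median of the set was then -0.02, against 0.19. After quantile normalization 6 were higher and 1, Aars2 (-0.37), lower, and likewise after normexp background correction (-0.32).

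With AP20187 in transgenic muscle, 5 of 20 cytosolic genes (25%) were higher than after vehicle and 0 lower, against 14.3% of all 13543 genes higher and 15% lower. The 5 were Tars, Lars, Aars, Iars and Eprs, by 1.35-fold to 1.98-fold. Of 15 mitochondrial genes, Ears2 alone passed, at 1.85-fold. At an unadjusted p under 0.05, 7 cytosolic genes were higher and 1 lower, and 4 mitochondrial genes were higher and 1 lower, against 43.4% of all genes with such a p in either direction.

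Tars, the threonyl enzyme, had relative levels of 22.9 and 27.8 after AP20187, against 13.8 and 11.7 after vehicle, a 1.98-fold rise (log2 change 0.99, SE 0.13, adjusted p = 0.00213). Lars had 42.7 and 47.9 after AP20187 and 25.8 and 25.9 after vehicle, a 1.75-fold rise (log2 change 0.81, SE 0.09, adjusted p = 0.0014). Both AP20187 arrays were above both vehicle arrays for the 2 genes, by more than the arrays of a group differed. Aars, the alanyl enzyme, had 61.1 and 63.2 after AP20187 and 43.8 and 39.2 after vehicle (1.5-fold, log2 change 0.58, SE 0.11, adjusted p = 0.00773). Iars had 43 and 41.3 after AP20187 and 33.5 and 29.1 after vehicle (1.35-fold, 0.43, SE 0.10, adjusted p = 0.0176). Eprs had 17.6 and 14.5 after AP20187, against 12.6 and 11.1 after vehicle (1.35-fold, 0.43, SE 0.13, adjusted p = 0.0379). The groups did not overlap in these 3 genes either, although the AP20187 arrays of Eprs were well apart. Ears2 had 4.84 and 5.05 after AP20187 and 2.51 and 2.85 after vehicle, a 1.85-fold rise (log2 change 0.89, SE 0.11, adjusted p = 0.00171). It was the second largest change of the 35 genes tested, below that of Tars.

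The remaining 15 cytosolic genes had log2 changes between -0.45 and 0.61. Wars had 0.15 with the probe used and 0.36 with its brighter probe. Vars (0.48, adjusted p = 0.0506) and Mars1 (0.30, adjusted p = 0.0557) came nearest to the threshold. Gars, with the largest difference between transgenic vehicle and wild type muscle, had 302 and 342 after AP20187, against 266 and 294 after vehicle (log2 change 0.20, adjusted p = 0.179). Nars (0.00) and Dars (-0.02) were level, and their groups overlapped. Rars, the arginyl enzyme, had 0.837 and 1.12 after AP20187 and 1.4 and 1.25 after vehicle, a log2 change of -0.45 (SE 0.16, adjusted p = 0.0725). Without the second AP20187 array it was called lower (-0.66, adjusted p = 0.0329). Kars (-0.21), Hars (-0.15) and Qars (-0.11) also had both AP20187 arrays below both vehicle arrays without passing the test. In all, 14 cytosolic genes had both AP20187 arrays above both vehicle arrays, as 27.2% of all genes did, and 2 overlapped. Another 4 lay below, for which the share of all genes was not computed. Of all genes, 39.9% had a positive log2 change here. The 14 mitochondrial genes that did not pass had log2 changes between -0.30 (Cars2, cysteinyl, adjusted p = 0.0601) and 0.39 (Mars2, adjusted p = 0.104).

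The median log2 change with AP20187 was 0.20 for the cytosolic and 0.11 for the mitochondrial genes, against -0.11 for all genes. The cytosolic change was the larger in 11 of 15 pairs, with a median difference of 0.26. In glutamate the order was turned, with Ears2 0.45 above Eprs, and likewise in arginine (Rars2 0.54 above Rars) and histidine (Hars2 0.34 above Hars). The count of cytosolic genes called was 9 after quantile normalization and 8 with the percentile over detected probes, and 3 without the second vehicle array, without the first AP20187 array or without a variance trend. Tars, Lars and Ears2 were called under each of the 17 alternatives. Aars was not called with the mean over its probes (adjusted p = 0.363), of which the second was not well above background on any array.

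The 4 arrays of this comparison shared a slide and a scan. The AP20187 arrays lay in columns 3 and 4 of the slide and both vehicle arrays in column 1, so column and treatment cannot be told apart. Over all genes, 1937 were higher and 2027 lower, while quantile normalization gave 2025 and 1275, the percentile over detected probes 2228 and 1416, and 1773 were higher and 1064 lower with the values of the authors' deposited table. Markers of other cells moved in the same comparison. Of 11 macrophage markers, 9 were lower after AP20187 and 0 higher, and their summed level was 21.3 and 21.9 after AP20187, against 36.5 and 40.5 after vehicle. Of 8 fibroblast markers 3 were lower (Tnmd, Lum and Mfap5, at -0.47 to -0.37 on the log2 scale) and 0 higher. The summed level of the 5 of these with a value on all 10 arrays was 113 to 180 after AP20187 and 152 to 209 after vehicle, and most of it was the collagen gene Col1a2, which was not called. Of 10 skeletal muscle markers 3 were lower and 0 higher, with a summed level over 8 of them of 6200 to 7110 after AP20187 and 8920 to 9060 after vehicle. Of 10 myotube and regeneration markers 1 was higher, Myog (3.44), and 3 were lower, Actc1 (-1.51), Myh8 (-0.52) and Mybph (-0.41). Of 3 erythroid markers 1 was lower. No endothelial or adipocyte marker of the 8 each was called. Their part in the changes of the synthetase genes was not tested, and in whole muscle fewer cells of a type and less RNA per cell cannot be told apart.

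In transgenic muscle after AP20187, 16 of 20 cytosolic genes (80%) and 8 of 15 mitochondrial genes were higher than in wild type, and 0 of either set lower, against 29.6% of all genes higher and 22.6% lower. This comparison shares its AP20187 arrays with the comparison against vehicle and its wild type arrays with the one above, so it adds no separate evidence. Lars had 42.7 and 47.9 after AP20187, against 10.7 and 10.7 in wild type (4.22-fold, log2 change 2.08, SE 0.09, adjusted p = 4.81e-06). Eprs had 17.6 and 14.5 after AP20187, against 4.02 and 3.63 in wild type (4.17-fold, SE 0.13 on the log2 scale, adjusted p = 2.43e-05). Gars had 302 and 342 after AP20187, against 88 and 82.4 in wild type (3.77-fold, SE 0.10, adjusted p = 1.25e-05). These 3 had the highest folds of the 35 genes tested. Mars1 had 14.4 and 12.6 after AP20187, against 4.67 and 4.53 in wild type (2.93-fold, SE 0.10, adjusted p = 2.91e-05). Sars had 87.4 and 81.4 after AP20187, against 32.9 and 28.1 in wild type (2.78-fold, SE 0.10, adjusted p = 4.25e-05). Both genes stood clear of wild type on each array. Tars had 22.9 and 27.8 after AP20187, against 8.9 and 9.34 in wild type (2.76-fold, SE 0.13, adjusted p = 9.74e-05). Iars had 43 and 41.3 after AP20187, against 15.9 and 15 in wild type (2.72-fold, SE 0.10, adjusted p = 4.13e-05). Cars had 43.7 and 46.4 after AP20187, against 20.8 and 20.4 in wild type (2.19-fold, SE 0.09, adjusted p = 5.84e-05). The groups did not overlap in these 3 genes. Hars, Kars, Qars and Rars did not pass, with log2 changes of 0.25, 0.17, 0.15 and 0.15. In Rars the AP20187 arrays (0.837 and 1.12) overlapped the wild type arrays (0.906 and 0.846).

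Ears2 had 4.84 and 5.05 after AP20187, against 1.65 and 1.63 in wild type (3.01-fold, log2 change 1.59, SE 0.11, adjusted p = 3.52e-05), the largest change of a mitochondrial gene here. Pars2 had 3.43 and 3.21 after AP20187, against 1.72 and 1.79 in wild type (1.89-fold, SE 0.10 on the log2 scale, adjusted p = 0.000301). Mars2 had 0.443 and 0.471 after AP20187, against 0.27 and 0.239 in wild type (1.80-fold, SE 0.16, adjusted p = 0.00349). Mars2 had the widest error of these 3. Yars2 had 5.86 and 6.33 after AP20187, against 3.44 and 3.67 in wild type (1.71-fold, SE 0.11, adjusted p = 0.000901). Tars2 had 25.7 and 27.8 after AP20187, against 15.9 and 16.3 in wild type (1.66-fold, SE 0.10, adjusted p = 0.000911). In both genes the groups were well apart. Rars2 had 7.03 and 7.82 after AP20187, against 5.18 and 5.59 in wild type (1.38-fold, SE 0.11, adjusted p = 0.00926). Fars2 had 27.6 and 28 after AP20187, against 20.9 and 19.9 in wild type (1.36-fold, SE 0.09, adjusted p = 0.00523). Iars2, the isoleucyl enzyme, had 4.39 and 4.75 after AP20187, against 3.42 and 3.72 in wild type (1.28-fold, SE 0.11, adjusted p = 0.0314). These were the smallest of the called mitochondrial changes.

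Aars2, Sars2, Cars2 and Wars2, for alanine, serine, cysteine and tryptophan, had log2 changes between -0.31 and -0.11 after AP20187 against wild type and did not pass. With the percentile over detected probes and after quantile normalization, 7 mitochondrial genes were higher and 3 lower: Aars2 was then at -0.38 under both, Sars2 at -0.45 and -0.41, and Cars2 at -0.35 and -0.30. After normexp background correction 8 were higher and 1, Aars2, lower. The cytosolic gene had the larger change in 14 of 15 pairs, arginine being the exception. The median log2 change was 1.09 for cytosolic and 0.36 for mitochondrial genes, against 0.04 for all genes. With the percentile over detected probes the median of all genes was -0.10, and 3118 genes were higher and 3998 lower, against 4004 and 3067. Under the alternatives the cytosolic median stayed 0.93 to 1.13 above that of all genes. In the same comparison 11 of 11 macrophage markers were lower (summed level 21.3 and 21.9 after AP20187, against 46.1 and 43 in wild type), as were 5 of 8 fibroblast and 6 of 10 skeletal muscle markers, with 0 higher in these lists. Of 10 myotube and regeneration markers 4 were higher and 4 lower, of 8 endothelial markers 1 was higher, and 1 of 8 adipocyte and 1 of 3 erythroid markers were lower. Their part was not tested.

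**Figure D3:**
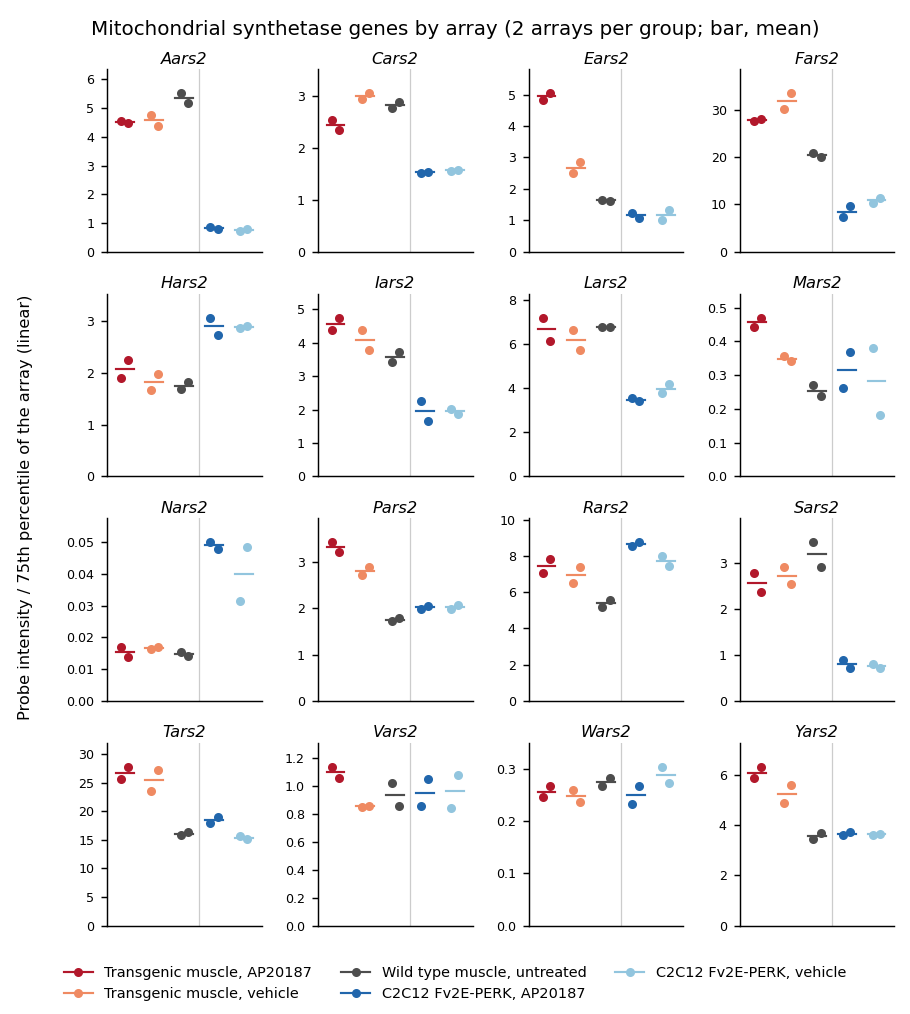
Relative level (probe intensity over the 75th percentile of the array, linear axes from 0) of the 16 mitochondrial synthetase genes on each array; points are arrays, bars are means of a group. Ears2 stands at 4.84 and 5.05 in transgenic muscle after AP20187, at 2.51 and 2.85 after vehicle and at 1.65 and 1.63 in wild type; Nars2 was not well above background on any array.

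The sum of these changes showed in the mean level of each set. Over the 17 cytosolic genes with a value on all arrays, the mean log2 level was 3.25 and 3.30 in transgenic muscle after AP20187, 3.07 and 3.00 after vehicle, and 2.33 and 2.25 in wild type muscle. It was 3.19 and 3.23 in C2C12 after AP20187 and 3.07 and 3.03 after vehicle. The cytosolic mean of wild type muscle was thus below every other array. Over the 16 mitochondrial genes, the mean was 1.31 and 1.30 in transgenic muscle after AP20187, 1.16 and 1.19 after vehicle, 0.95 and 0.93 in wild type muscle, 0.60 and 0.61 in C2C12 after AP20187 and 0.57 and 0.59 after vehicle. In the mitochondrial set the C2C12 arrays were the lowest. The 16 genes include Nars2, which was not well above background on any array. Its log2 values were -6.19 to -5.87 in muscle and -4.99 to -4.32 in C2C12.

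Cytosolic enzymes of the multi-synthetase complex, in which 8 synthetase genes (Dars, Eprs, Iars, Kars, Lars, Mars1, Qars and Rars) take part in mammals, were set beside the others. In transgenic vehicle muscle against wild type their changes ran between 0.26 and 1.63 with a median of 0.89, and the 12 genes outside the complex had a median of 0.75. With AP20187 the complex genes ran between -0.45 and 0.81 (median 0.14), and the others between -0.15 and 0.99 (median 0.20). Of the promoters read above, the 5 cytosolic genes with a CARE core had log2 changes between 0.20 and 0.99 with AP20187 in muscle (median 0.58, 3 called), and the 8 without it between -0.21 and 0.43 (median 0.11, 1 called). In transgenic vehicle muscle against wild type the medians were 1.01 and 0.57, with 5 of 5 and 7 of 8 called. Of all genes, 14.3% were called higher with AP20187 and 25.7% in transgenic vehicle muscle against wild type. The difference between genes with and without the core was not tested. Eprs, Mars1 and Sars, at 1.25 or more, had no core in this window. Lars, the second strongest of the 5 AP20187 calls, has no promoter in the table.

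In C2C12 cells, AP20187 gave no called change in either set: 0 of 18 cytosolic and 0 of 15 mitochondrial genes passed in limma, against 0.316% of all 11409 genes higher and 0.167% lower. At an unadjusted p under 0.05, 8 cytosolic genes were higher and 0 lower, and 1 mitochondrial gene was higher and 1 lower, in a comparison where 1616 of all genes had such a p and 55 were called. Tars had relative levels of 44.7 and 47.6 after AP20187, against 30.7 and 31.2 after vehicle, the smallest p of the set (log2 change 0.58, SE 0.12, adjusted p = 0.0656). Lars had 49.5 and 41.7 after AP20187 and 35.3 and 31.5 after vehicle (0.45, SE 0.13, adjusted p = 0.177). Eprs had 7.05 and 7.22 after AP20187 and 5.97 and 3.56 after vehicle (0.63, SE 0.20, adjusted p = 0.198). In these 3 genes the groups did not overlap, although the vehicle arrays of Eprs were far from each other. Without the first C2C12 vehicle array Eprs was called (1.00, adjusted p = 0.0232). Yars (0.63), Rars (0.43), Iars (0.32), Nars (0.29) and Mars1 (0.28) had adjusted p between 0.211 and 0.339.

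The result in C2C12 depends on how the arrays are scaled. The 2 AP20187 arrays carried outlier flags on 2.37% and 2% of their gene spots, against 0.16% to 0.376% on the others. On these AP20187 arrays 93.3% and 91.5% of the flagged spots lay above the 75th percentile. The spots of Gars and Sars were flagged on both AP20187 arrays, so these genes were not tested. With flagged spots kept, their log2 changes were 0.40 (adjusted p = 0.219) and 0.16 (adjusted p = 0.598), and Cars, flagged on 1 array, was fitted on 3 values. The percentile without the flagged spots was the scaling first computed. It was replaced by the percentile over all gene spots once these flags had been seen, before any test, so both the scaling used here and its alternative were chosen with the flags known. With the percentile taken without the flagged spots, Tars (0.78), Lars (0.65), Iars (0.53) and Eprs (0.84) were called, and the median of all genes moved to 0.15, against -0.06. Of all genes, 204 were then higher and 15 lower, against 36 and 19 (54 and 12 with the percentile over detected probes, 162 and 198 after normexp background correction). The cytosolic median stood 0.26 above that of all genes with either percentile, with or without flagged spots. Changing the percentile moves all genes of an array alike, so this gap could hardly change. It was 0.31 after quantile normalization, 0.23 after normexp background correction and 0.16 without a filter on dim probes. Tars was also called after quantile normalization, with the percentile over detected probes and without a filter on dim probes.

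The median log2 change in C2C12 was 0.20 for the cytosolic and 0.00 for the mitochondrial genes, against -0.06 for all genes. Of the mitochondrial genes, Fars2 had 7.25 and 9.76 after AP20187, against 10.4 and 11.3 after vehicle (-0.36, adjusted p = 0.308), and Tars2 had 18 and 19 after AP20187, against 15.6 and 15.2 after vehicle (0.26, adjusted p = 0.339). Ears2 had 1.23 and 1.09 after AP20187 and 1.02 and 1.33 after vehicle, so its groups overlapped. The vehicle arrays lay in the first row of the slide and the AP20187 arrays in the second, so row and treatment cannot be told apart. Of the marker lists, 4 of 7 adipocyte markers were higher with AP20187 and 0 lower, with a median log2 change of 3.23. The fatty acid binding protein gene Fabp4 had 3.95 and 2.69 after AP20187, against 0.295 and 0.212 after vehicle, and the adipokine gene Adipoq had 1.86 and 0.996 after AP20187, against 0.145 and 0.107 after vehicle. Cfd and Retn were the others called. Their vehicle values were dim: Adipoq was not well above background on either vehicle array, and Fabp4, Cfd and Retn were on 1 of the 2. Car3 had 10.6 and 14.5 after AP20187, against 14.7 and 17.5 after vehicle, and was not called. Of 9 skeletal muscle markers 2 were lower and 0 higher, and the AP20187 values of all 9 lay below both vehicle arrays. For Actn3 this rests on 1 AP20187 array (26.7, against 26.8 and 33.7 after vehicle), as the other gave no value. The share of all genes that lay below was not computed, and 39.5% of all genes had a positive log2 change here. Pvalb had 0.605 and 0.719 after AP20187, against 5.29 and 4.67 after vehicle (log2 change -2.91), and Myh4 had 1.74 and 1.95 after AP20187, against 6.54 and 6.59 after vehicle (-1.83). The part of these markers in the synthetase values was not tested.

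The AP20187 change in muscle differed from that in C2C12 for 1 synthetase gene, Ears2, in the fit over all 10 arrays. The difference of the log2 changes was 0.90 (SE 0.21, adjusted p = 0.0209), with 0.89 in muscle and -0.01 in C2C12. Of all 14094 genes, 7.98% had a larger change in muscle and 4.02% a smaller one. Ears2 did not pass without the first vehicle array of muscle, without either AP20187 array of muscle or without the second AP20187 array of C2C12 (adjusted p up to 0.0632). Of the 18 cytosolic genes, 0 passed, with 3 above and 1 below at an unadjusted p under 0.05, against 28.9% of all genes with such a p in either direction. Rars had the difference furthest from 0 (-0.88, SE 0.27, adjusted p = 0.0614), with -0.45 in muscle and 0.43 in C2C12. It passed without the second AP20187 array of muscle (-1.09) and without the first AP20187 array of C2C12 (-1.12). Vars had 0.64 (SE 0.22, adjusted p = 0.0893), with 0.48 in muscle and -0.16 in C2C12. Tars, Lars and Aars had differences of 0.36 to 0.41 that did not pass. Cytosolic medians of the difference were 0.14 for 18 genes, against -0.06 for all genes. With the percentile taken without flagged spots the median of all genes was -0.27, 724 genes were above and 1640 below (against 1125 and 566), and Rars (-1.09) and Nars (-0.49) passed. After normexp background correction Rars (-0.77), Vars (0.79) and Lars (0.62) passed.

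**Figure D4:**
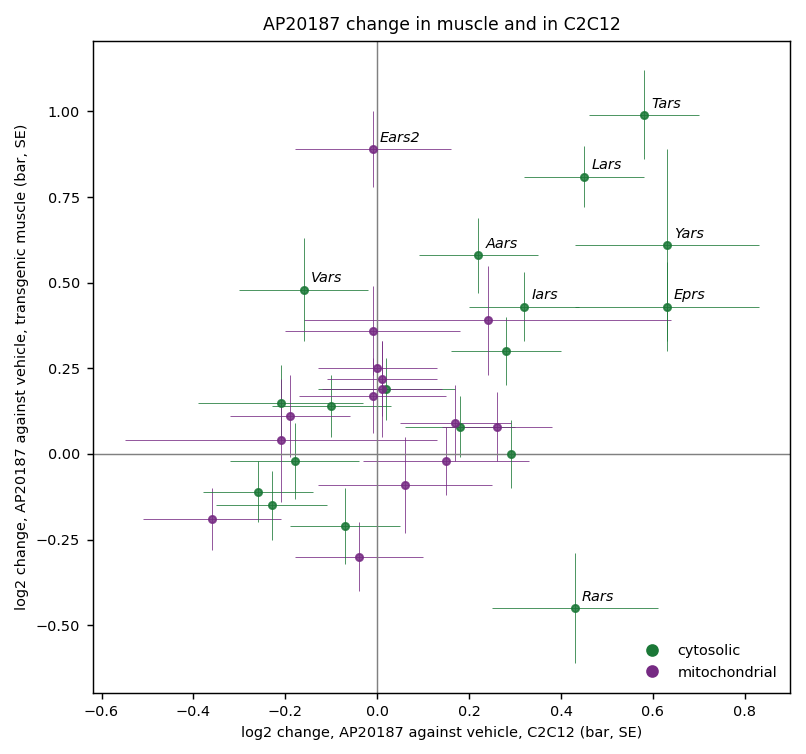
Log2 change with AP20187 in C2C12 (horizontal) and in transgenic muscle (vertical) for the 33 synthetase genes tested in both, with standard errors; green is cytosolic, purple mitochondrial, and genes past 0.4 on either axis are named. Tars and Lars lie to the upper right, Ears2 at 0.89 in muscle and -0.01 in C2C12, and Rars at -0.45 and 0.43.

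The vehicle samples of muscle and C2C12, which all carry Fv2E-PERK, also differed in their synthetase levels. Of 20 cytosolic genes, 11 were higher in transgenic vehicle muscle and 6 lower. Of 15 mitochondrial genes, 10 were higher in muscle and 1 lower. The background was wide, with 40.2% of all 14292 genes higher in muscle and 38.5% lower. Medians were 0.43 for cytosolic and 0.63 for mitochondrial genes, against 0.04 for all genes, and tissue and scan cannot be told apart. After quantile normalization 4 cytosolic genes were higher and 6 lower, and the cytosolic median was 0.02, which is 0.03 below that of all genes. Over all the alternatives the cytosolic median lay between 0.03 below and 1.01 above that of all genes.

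Among mitochondrial genes, Aars2 had 4.75 and 4.38 in transgenic vehicle muscle, against 0.722 and 0.785 in C2C12 vehicle (6.05-fold, log2 difference 2.60, SE 0.12, adjusted p = 4.35e-09). Sars2, the seryl enzyme, had 2.91 and 2.54 in muscle and 0.811 and 0.71 in C2C12 (3.59-fold, 1.84, SE 0.16, adjusted p = 1.06e-06), and Fars2 had 30.1 and 33.5 in muscle and 10.4 and 11.3 in C2C12 (2.94-fold, 1.55, SE 0.13, adjusted p = 8.27e-07). All arrays of muscle were above all of C2C12 for the 3 genes. Cars2 had 2.93 and 3.05 in muscle and 1.55 and 1.58 in C2C12 (1.91-fold, 0.94, SE 0.11, adjusted p = 1.32e-05). Ears2 had 2.51 and 2.85 in muscle and 1.02 and 1.33 in C2C12 (2.29-fold, SE 0.15, adjusted p = 1.85e-05). Iars2 had 4.38 and 3.77 in muscle and 2.03 and 1.87 in C2C12 (2.08-fold, SE 0.15, adjusted p = 6.74e-05). With the probes used, the muscle arrays again stood clear of C2C12 in these 3. A second, dimmer Iars2 probe was well above background on all 10 arrays, and its groups overlapped. Its log2 levels were -0.04 and -0.57 in muscle and -0.28 and -0.06 in C2C12. Tars2 had 23.5 and 27.3 in muscle and 15.6 and 15.2 in C2C12 (1.64-fold, SE 0.10, adjusted p = 4.66e-05). Lars2, the leucyl enzyme, had 6.63 and 5.74 in muscle and 3.77 and 4.19 in C2C12 (1.55-fold, SE 0.12, adjusted p = 0.000466). Yars2 (1.44-fold) and Pars2 (1.38-fold) were higher in muscle too. Hars2, the histidyl enzyme, was the 1 mitochondrial gene lower in muscle, with 1.67 and 1.97 in muscle and 2.86 and 2.91 in C2C12 (-0.67, SE 0.14, adjusted p = 0.000891).

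Of the cytosolic genes, Eprs had 12.6 and 11.1 in transgenic vehicle muscle, against 5.97 and 3.56 in C2C12 vehicle (2.57-fold, log2 difference 1.36, SE 0.20, adjusted p = 7.91e-05). Iars had 33.5 and 29.1 in muscle and 14.5 and 13.9 in C2C12 (2.20-fold, 1.14, SE 0.10, adjusted p = 8.44e-07). Gars had 266 and 294 in muscle and 167 and 149 in C2C12 (1.77-fold, 0.83, SE 0.12, adjusted p = 8.14e-05). Qars had 33.1 and 32 in muscle and 19.3 and 22.5 in C2C12 (1.56-fold, 0.64, SE 0.10, adjusted p = 0.000125). These 4 were higher on both muscle arrays without overlap, and the next 4 were lower. Yars had 0.16 and 0.183 in muscle and 0.638 and 0.5 in C2C12 (3.29-fold lower, -1.72, SE 0.26, adjusted p = 0.000101). Hars had 3.62 and 3.67 in muscle, against 10.3 and 9.33 in C2C12 (2.69-fold lower, -1.43, SE 0.10, adjusted p = 2.26e-07). Tars had 13.8 and 11.7 in muscle and 30.7 and 31.2 in C2C12 (2.43-fold lower, -1.28, SE 0.12, adjusted p = 1.46e-06). Farsa had 6.81 and 6.48 in muscle and 11 and 13.1 in C2C12 (1.81-fold lower, -0.85, SE 0.10, adjusted p = 1.44e-05), while Farsb, the other subunit of the same enzyme, was higher (0.39). A second, dimmer Farsa probe, well above background on all 10 arrays, was lower in muscle by less. Its log2 levels were 1.27 and 1.23 in muscle and 1.38 and 1.52 in C2C12. Histidine was the 1 amino acid for which both the cytosolic and the mitochondrial gene were lower in muscle. The median of all genes was -0.18 with the percentile over detected probes, and 5051 genes were then higher and 6215 lower, against 5747 and 5502. Quantile normalization left 10 of the 17 cytosolic calls, and Aars (0.48) and Kars (0.47) then turned to -0.02. The mean over probes gave -0.40 for Aars and -0.31 for Pars2 (0.47). The second probes that enter these means were dim, well above background on 0 (Aars) and 7 (Pars2) of the 10 arrays.

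**Figure D5:**
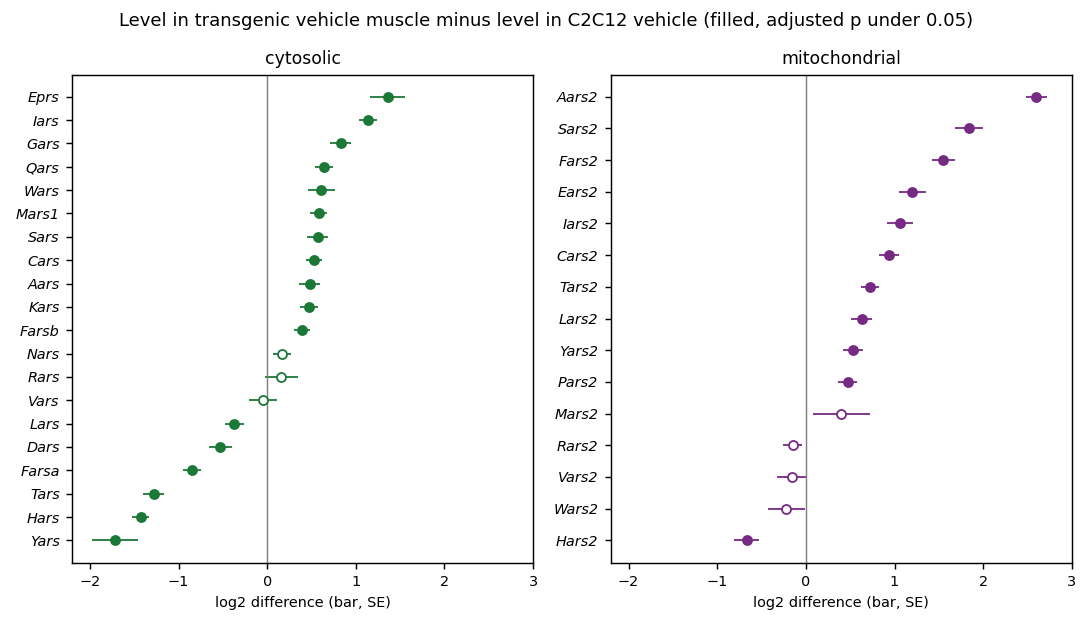
Log2 level in transgenic vehicle muscle minus that in C2C12 vehicle, with standard errors, for cytosolic (left) and mitochondrial (right) synthetase genes ordered by size; filled points passed an adjusted p of 0.05. The cytosolic genes run between -1.72 (Yars) and 1.36 (Eprs), the mitochondrial genes between -0.67 (Hars2) and 2.60 (Aars2).

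Genes that work next to the synthetases were followed as a list of 17. In transgenic vehicle muscle 11 of them (64.7%) were higher than in wild type and 3 (17.6%) lower, against 25.7% and 12.6% of all genes, with a median log2 change of 0.47. Eef1e1, a scaffold protein of the synthetase complex, rose by 0.99, Gatb by 0.90, the pseudouridine synthase Pus1 by 0.84 and Trnt1, which adds the CCA end of transfer RNAs, by 0.83. Dtd1, the mitochondrial formyltransferase Mtfmt, Gatc, Pstk, Aarsd1 and Elac2 rose by 0.40 to 0.66. Aimp2, another scaffold of the complex, fell by 1.04, the threonyl synthetase-like gene Tarsl2 fell by 0.80 and Eif2ak4, the eIF2alpha kinase GCN2 that senses uncharged tRNA, fell by 0.57. Aimp1, the remaining scaffold of the list, had 0.31 (adjusted p = 0.0941).

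With AP20187 in muscle, 2 of the 17 (11.8%) were higher and 0 lower, against 14.3% and 15% of all genes. Pus1 rose by 0.75 (SE 0.15, adjusted p = 0.00955) and Eif2ak4 by 0.81 (SE 0.16, adjusted p = 0.0107), and the list had a median of -0.14. Against wild type, 8 were higher after AP20187 and 2 lower, against 29.6% and 22.6% of all genes, with Pus1 at 1.59 and Aimp2 at -1.37. In C2C12 0 of 16 passed in limma, against 0.316% of all genes higher and 0.167% lower, and at an unadjusted p under 0.05 1 was higher and 1 lower. The smallest p was that of Aimp2 (-0.56, adjusted p = 0.15), which rests on 3 values because the second AP20187 array gave none. Eif2ak4 had a larger AP20187 change in muscle than in C2C12 by 0.83 (adjusted p = 0.0467), the 1 gene of the 17 to pass, where 7.98% of all genes were above and 4.02% below. In vehicle samples 13 were higher in muscle than in C2C12 and 1 lower, against 40.2% and 38.5% of all genes, with Tarsl2 at 4.16 and Eif2ak4 at -1.84.

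Lists of muscle markers also moved in transgenic vehicle muscle against wild type. Of 10 skeletal muscle markers 1 was higher and 4 lower, among them Ttn (-1.59) and Casq1 (-0.92). Of 10 myotube and regeneration markers 5 were higher and 4 lower, with Myh3 at 1.88, Chrna1 at 1.52, Myog at 1.28 and Actc1 at -3.18. Macrophage markers had 0 higher and 2 lower of 11, fibroblast markers 0 and 2 of 8, endothelial markers 1 and 0 of 8, adipocyte markers 2 and 1 of 8, and erythroid markers 0 and 1 of 3. Their part in the synthetase changes was not tested.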

How the data were processed

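RNA from 10 samples was hybridised to 1-colour Agilent arrays. Per the file headers, Agilent Feature Extraction (version 10.7.1.1) had subtracted background from the deposited intensity. The authors also deposited normalized log2 values of these arrays. Array-to-array differences in that table and in the scanner values had a correlation of at least 0.99984, so its scale and direction are known, while its centring is unknown (column medians -0.575 to 0.797). Control spots (3671 of 62976) were left out. Each array's log2 intensity was set against the 75th percentile over its gene spots. A first version took that percentile without outlier-flagged spots. It was changed after the flags on the C2C12 arrays were seen and before any test, and is given as an alternative. Flagged spots were then left out and spots of a probe averaged. No spot was saturated. RefSeq accessions gave 26056 probes a name through the GRCm38.p6 table. The brightest probe of a gene was used, preferring probes with a value on every array. A gene was tested if well above background on both arrays of 1 group in the fit. limma 3.58.1 (R 4.3.3) fitted all genes at once, with lmFit and a trended eBayes, on the 6 muscle arrays, the 4 C2C12 arrays or all 10. The code was tested on simulated data.

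The members, lists and tests were chosen with earlier results of these data known. The 8 called members with the smallest p per set and comparison, at most, were given with array values, fold, error and adjusted p, and others mostly by range or change. The complex members were grouped from general knowledge. Normexp, with an offset of 50, used the median signal in place of the mean signal, which was not used here. Pairs of protein sequences were not compared here. The number of arrays limits the precision. Alternatives were quantile normalization, the percentile over detected probes, normexp, no filter on dim probes, the mean over probes, flagged spots kept, no variance trend, the authors' table, the replicate number as a block, the 4 transgenic arrays alone, the percentile without flagged spots, and each array left out. The values of 1 associated gene are not reported here.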

Additional observations from a re-analysis of the deposited data

Results flagged for a closer look

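Ears2, the mitochondrial glutamyl-tRNA synthetase, responded differently to AP20187 in transgenic muscle and in C2C12 by a test of the difference itself. The log2 change in muscle minus that in C2C12 was 0.90 (SE 0.21, adjusted p = 0.0209 in limma over all genes). Both AP20187 arrays of muscle (4.84 and 5.05) were above both vehicle arrays (2.51 and 2.85), while the C2C12 arrays overlapped (1.23 and 1.09 after AP20187, 1.02 and 1.33 after vehicle). Over its alternatives the difference ran between 0.69 and 1.09, and it did not pass in 4 of 20, each of which left out an array.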

How the results depend on the processing

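No synthetase gene called in the 3 muscle comparisons changed direction under the alternatives run. In the comparison of muscle with C2C12, Aars changed to -0.02 after quantile normalization and to -0.40 with the mean over probes. Kars changed to -0.02 after quantile normalization and Pars2 to -0.31 with the mean over probes. The second probes of Aars and Pars2 were dim, well above background on 0 and 7 of the 10 arrays. The count of cytosolic genes called with AP20187 in muscle (5) was 9 after quantile normalization, 8 with the percentile over detected probes, 3 without a variance trend and 3 to 7 with an array left out (6 higher and 1, Rars, lower in the last). The cytosolic count of transgenic vehicle against wild type (19) was 12 with the percentile over detected probes and 11 to 19 with an array left out. In C2C12 the cytosolic count (0) was 1 after quantile normalization, with the percentile over detected probes, without a filter on dim probes and with the replicate block, 4 with the percentile without flagged spots, and 0 to 1 with an array left out. The mitochondrial count in C2C12 (0) was 1 after normexp (Fars2, -0.64). The mitochondrial count with AP20187 in muscle (1) was 2 with the percentile over detected probes, after normexp and in the authors' deposited table. It was 4 with the replicate block, among them Cars2 as lower (-0.30). In the test of the AP20187 change in muscle minus that in C2C12, the cytosolic count (0) was 3 after normexp, 2 with the percentile without flagged spots and 0 to 1 with an array left out, and the mitochondrial count (1) was 0 to 1 with an array left out. The cytosolic count between muscle and C2C12 vehicle (17) was 10 after quantile normalization. Over all genes, leaving out an array gave as few as 1137 higher and 732 lower with AP20187 in muscle (without the second vehicle array), 2194 and 955 for transgenic vehicle against wild type (without the first wild type array), 11 and 2 in C2C12 (without the second vehicle array) and 654 and 281 for the difference of changes (without the second muscle vehicle array). The causes were not tested.

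The replicate numbers were not taken as pairs, since the labels do not tie a number to a shared batch and there are only 2. The deviations of same-numbered arrays correlated at 0.193 to 0.348 between the muscle groups and at 0.0221 in C2C12. With the replicate block the cytosolic counts were 7 with AP20187 in muscle, Vars (adjusted p = 0.0033) and Mars1 (adjusted p = 0.0209) being added, and 20 for transgenic vehicle against wild type. The mitochondrial genes called against wild type were then 7 higher and 2 lower after vehicle, against 6 and 0, and 9 higher and 2 lower after AP20187, against 8 and 0. Leaving out an array leaves its group with 1, assumed to vary like the others. Dim genes such as Yars, with an SE of 0.28 in muscle, limit what could pass.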
